A study of Mus musculus with 8 samples.

Results

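Luminal cells line the milk duct and later make milk. In 4 single-cell libraries from the mammary gland of pubertal mice, 63 wells were counted as luminal, of 384 wells in those libraries and 768 in the series. A well was counted when it held at least 500 transcripts, when its Krt8, Krt18, Krt19, Trf and Prlr transcripts summed to at least 3 and exceeded those of the contractile genes Acta2, Tagln and Myl9, and when globin made up under 25% of its transcripts. The members were thus chosen by these counts themselves. They were then split by the larger of 2 of them: 22 hormone-sensing wells held more Prlr than Trf, 34 secretory wells held more Trf than Prlr, and 7 were tied. The mice were 5 weeks old and of mixed strain, with no treatment or engineered allele named in the labels. Ducts and terminal end buds, the growing duct tips, were dissected from the 4th and 5th glands, and live cells were sorted into plates for SORT-seq, a robotic form of CEL-Seq2 that tags every well and transcript. The labels name 2 plates of 4 libraries each. They do not say which libraries hold ducts or end buds, or how many mice were used. The libraries described here are numbers 1 and 3 of both plates, and p-values rest on how far these libraries vary, which can be of technical origin.

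The luminal layer has a pair of main lineages. Hormone-sensing cells carry the receptors for oestrogen, progesterone and prolactin and pass the signal to their neighbours through secreted factors such as amphiregulin. Secretory cells, also called luminal progenitors at this age, depend on the transcription factor Elf5 and hold the program that makes milk proteins in pregnancy. The rule reads the class from Prlr, the prolactin receptor, and Trf, transferrin, an iron carrier secreted into milk.

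Start regions of 3 luminal genes are shown because the results turn on them. Prlr defines the hormone-sensing class and Lalba marks the secretory class. Ltf was among the genes of largest variance to mean ratio in secretory wells. Each runs from 250 bases before to 50 after a RefSeq start site on GRCm38.p6, with matches to a STAT motif (TTCNNNGAA), a forkhead motif (TGTTTAC or its reverse complement GTAAACA) or a GATA motif (AGATAA or its reverse complement TTATCT) in capitals. The Prlr region shown is the middle of 3 listed starts, at chr15:10223656-10223955 on the plus strand, with 1 STAT match at -110 and 1 forkhead match at -215; it was chosen for its matches, and the other 2 Prlr regions held none of the 3 motifs. The Lalba region, at chr15:98482634-98482933 on the minus strand, held no match. The Ltf region, at chr9:111019042-111019341 on the plus strand, held 1 GATA match at -32. Of all 32851 listed start regions, 8.30% held the STAT motif, 3.65% the forkhead motif and 11.2% the GATA motif. A match describes the letters only.
Prlr: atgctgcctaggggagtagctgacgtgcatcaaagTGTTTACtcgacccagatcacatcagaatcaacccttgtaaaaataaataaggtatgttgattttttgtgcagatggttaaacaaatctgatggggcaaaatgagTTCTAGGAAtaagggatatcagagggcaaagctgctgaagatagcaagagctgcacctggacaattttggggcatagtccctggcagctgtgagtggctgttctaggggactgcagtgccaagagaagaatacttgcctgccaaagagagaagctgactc
Lalba: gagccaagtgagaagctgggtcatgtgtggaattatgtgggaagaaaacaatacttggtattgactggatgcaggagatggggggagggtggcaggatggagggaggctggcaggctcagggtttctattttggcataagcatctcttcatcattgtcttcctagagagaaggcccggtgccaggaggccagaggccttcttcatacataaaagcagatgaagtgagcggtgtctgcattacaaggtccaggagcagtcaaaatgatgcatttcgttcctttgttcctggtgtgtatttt
Ltf: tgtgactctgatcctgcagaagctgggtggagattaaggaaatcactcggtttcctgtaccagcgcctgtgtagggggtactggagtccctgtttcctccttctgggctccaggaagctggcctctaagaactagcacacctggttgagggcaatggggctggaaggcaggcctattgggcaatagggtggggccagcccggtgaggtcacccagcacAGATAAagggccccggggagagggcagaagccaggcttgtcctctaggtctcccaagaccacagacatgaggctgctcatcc

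The 4 libraries summed to between 126854 and 220249 transcripts, in 96 wells each, and 90 of their wells held 500 or more. Each held 12 to 17 luminal wells, namely 12, 17, 17 and 17 in plate 1 library 1, plate 1 library 3, plate 2 library 1 and plate 2 library 3, the order used for every set of 4 values below. No pair of luminal wells held identical counts. In libraries 2 and 4, 1 of 99 wells of that depth passed the same rule. Of the 27 wells left out, 26 had a keratin, Trf and Prlr sum under 3, and 1 had too much globin. The wells just inside the depth limit held 554, 615 and 644 transcripts, and those just outside it 442, 465 and 481. For the marker sum, 2 wells stood at 3 and 3 wells missed with 2.

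Markers that the rule did not use were read as a check of the luminal label. Krt5 and Krt14, keratins of basal cells, were at 0 in all 63 wells, which allows up to 0.0457 per 10000 transcripts by counting error, against 5.56 and 2.91 per 10000 in the 79 basal wells of libraries 2 and 4. Other basal genes were not absent. Of a list of 20, transcripts were found in 11 of 22 hormone-sensing, 26 of 34 secretory and 2 of 7 tied wells, with at most 10 in a well. Of the rule's contractile genes, the plate 2 library 1 well of 36794 transcripts held 27. Epcam, an adhesion molecule of epithelium that the rule did not use, stood in the classes at 9.38 ± 1.18 and 10.02 ± 0.91 per 10000 (SD, n = 4 libraries). Among other cell types, 2 secretory wells of plate 1 library 1 were led by a foreign list: the well of 3425 transcripts held 146 of macrophage and dendritic genes, and that of 4902 held 38 of lymphocyte genes. Neither well enters the class test below, because that library had too few hormone-sensing wells.

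The Prlr and Trf counts parted deep wells cleanly and shallow wells poorly. In the 14 hormone-sensing wells of 1500 or more transcripts, Prlr ranged from 8 to 226 with a median of 48, and Trf from 0 to 14. In the 28 secretory wells of that depth, Trf ranged from 2 to 394 with a median of 67.5, and Prlr from 0 to 14. These values chose the classes and are a description only. The Trf counts of 2 and 6 were those of the 2 wells led by foreign lists. In the 14 classed wells under 1500 the larger count was at most 9, and its median was 2 in both classes. A margin of 2 transcripts and a 3-fold ratio would drop 2 hormone-sensing and 3 secretory wells, all shallow.

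**Figure D1:**
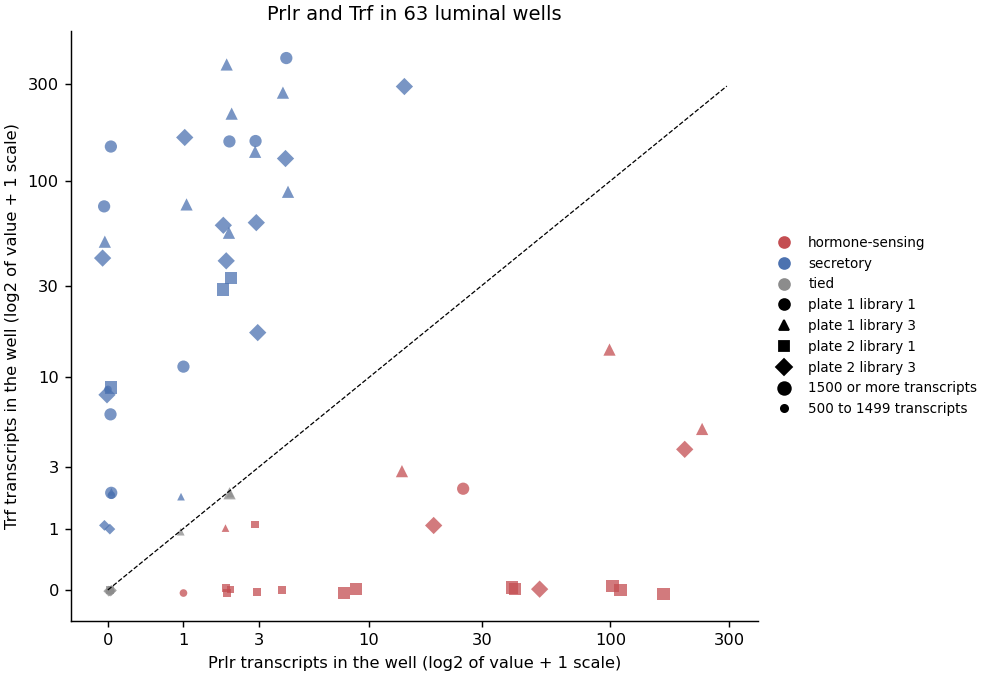
Transcripts of Prlr (x axis) and Trf (y axis) in each of the 63 luminal wells, both on a log2 scale of the value plus 1 with a small sideways offset, coloured by class and shaped by library, with large symbols for wells of 1500 or more transcripts. The 14 deep hormone-sensing wells lie along the bottom and right, the 28 deep secretory wells along the left and top, and the shallow wells crowd the corner near 0.

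Hormone-sensing cells were the majority in 1 library and the minority in the other 3. Their share of classed wells was 16.7%, 28.6%, 81.3% and 21.4%, a mean of 37.0% ± 29.9 (SD, n = 4). The exact binomial 95% interval of plate 2 library 1 was 54.4 to 96%, and it overlapped that of plate 1 library 3 only, which reached 58.1%. Plate 2 exceeded plate 1 by 28.7 percentage points (exact permutation test, two-sided, p = 0.667; the smallest p that 2 against 2 libraries can give is 0.333), and without plate 2 library 1 the difference was -1.19 points. The wells also differed widely in depth, from 644 to 57903 transcripts with a median of 7882 in hormone-sensing wells and from 554 to 45824 with a median of 5989 in secretory wells. The ratio of the class medians, hormone-sensing over secretory, was 0.685, 3.64, 2.54 and 3.52 in the 4 libraries, higher in 3 of 4, a mean log2 ratio of 1.12 ± 1.13 (SD, n = 4; exact paired permutation test, two-sided, p = 0.25, smallest possible 0.125).

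Most tested genes of a hormone-sensing list were higher in hormone-sensing wells. Most tested genes of the milk and progenitor lists were higher in secretory wells. Transcripts were summed by library and class in the 3 libraries with at least 3 wells of both classes, and tested by edgeR's quasi-likelihood test with library as a block and Benjamini-Hochberg adjustment. Of 1797 genes tested, 246 (13.7%) passed an adjusted p of 0.05, with 109 higher (6.07%) and 137 lower (7.62%) in hormone-sensing wells. The genes of the rule were not tested. Since the classes were cut from the same wells' counts, the p-values describe how far the other genes follow Prlr and Trf. The gene lists counted below were chosen with earlier results of these data known. Their counts are thus a description only, to be read beside the shares over all genes tested. A simulated 4-fold change was called in 23.3% of genes and a 16-fold change in 95.6%. The simulation gave every gene the same spread, set by hand, and no library effect. The rates hold for that setting only, and smaller differences here may go uncalled.

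Of the hormone-sensing gene list, 10 of 13 tested members rose in hormone-sensing wells and 0 fell, with a median log2 change of 4.55 against 0.12 over all genes tested. Pgr, the progesterone receptor, stood at 16.6, 9.04, 10.3 and 11 per 10000 in hormone-sensing and at 0.0995, 0.266, 0.808 and 0.259 in secretory wells. Every hormone-sensing sum lay above every secretory sum, and the log2 change was 4.77 ± 0.71 (SE, edgeR adjusted p = 1.56e-09). Single deep wells did overlap, from 1.03 per 10000 in hormone-sensing wells and up to 1.47 in secretory wells. Cited1, a coactivator of oestrogen receptor responses, was at 0, 36.9, 18.3 and 12.1 per 10000 against 0.398, 1.20, 0.808 and 0.432. Its 0 came from plate 1 library 1, which held 2 hormone-sensing wells and is not in the test. The log2 change was 4.62 ± 0.54 (SE; edgeR adjusted p = 2.63e-15). Areg, the amphiregulin ligand of the EGF receptor, was at 1.51, 26.6, 17.1 and 8.29 against 0, 1.20, 0 and 0.0864 per 10000, a log2 change of 5.02 ± 0.61 (SE; edgeR adjusted p = 4.85e-14). Foxa1, a factor that opens chromatin for hormone receptors, had transcripts in 18 of 22 hormone-sensing and 8 of 34 secretory wells. Esr1, the oestrogen receptor itself, was thinly caught, with 21 transcripts in 8 hormone-sensing wells and 5 in 2 secretory wells. Gata3, a factor of the whole luminal lineage, was at 13.8 to 16.6 against 5.85 to 8.08 per 10000, a difference that missed the threshold (log2 change 1.06 ± 0.43, SE; edgeR adjusted p = 0.0901).

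**Figure D2:**
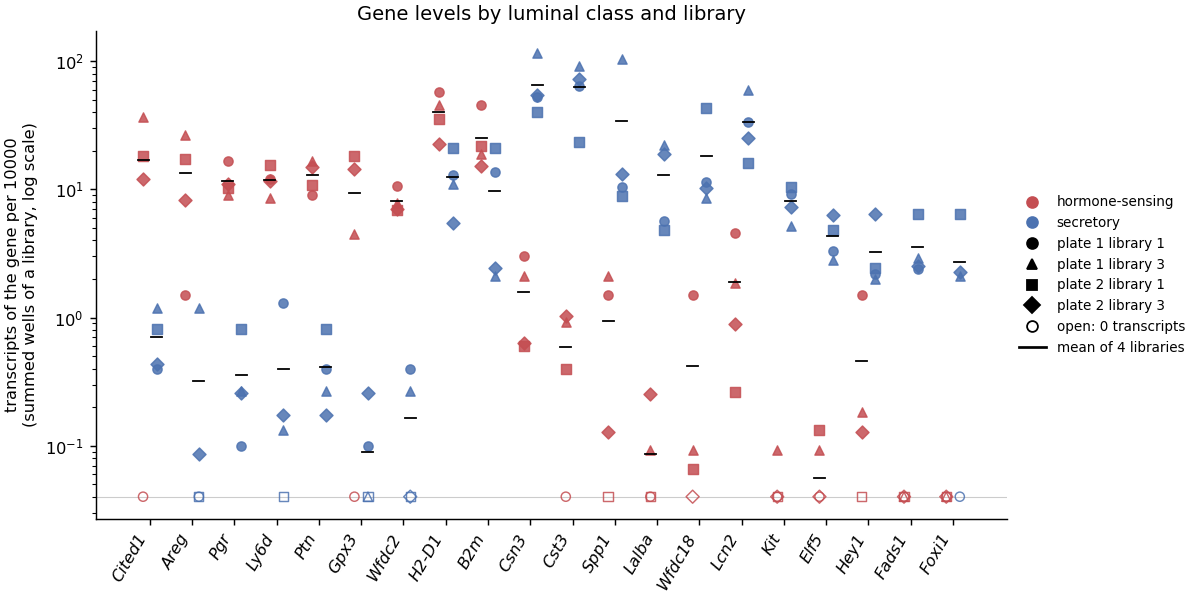
Transcripts per 10000 of 20 genes (log axis) in hormone-sensing (red) and secretory (blue) wells summed by library, one symbol shape per library, open symbols on the lowest line for 0 transcripts, bars for the mean of 4 libraries. Pgr, Ptn and Wfdc2 sit above 6 in every hormone-sensing sum and below 1 in every secretory sum, and Csn3, Cst3 and Kit show the reverse order.

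The 12 largest called changes toward hormone-sensing wells reached past that list. Ly6d, a small surface protein, was at 12.1, 8.58, 15.5 and 11.6 per 10000 against 1.29, 0.133, 0 and 0.173, a log2 change of 5.94 ± 0.76 (SE; edgeR adjusted p = 9.57e-13). Of the 13 Ly6d transcripts in secretory wells of plate 1 library 1, 9 came from the well led by lymphocyte genes. Ptn, the growth factor pleiotrophin, was at 9.07, 16.6, 10.9 and 14.9 against 0.398, 0.266, 0.808 and 0.173 per 10000. Wfdc2, a secreted protease inhibitor, was at 10.6, 7.84, 6.95 and 7.02 against 0.398, 0.266, 0 and 0. For both genes every hormone-sensing sum lay above every secretory sum. The log2 changes were 5.56 ± 0.69 and 5.85 ± 0.85 (SE, edgeR adjusted p = 1.92e-13 and 5.44e-10). Gpx3, a secreted glutathione peroxidase, was pooled at 87.8 times the secretory level, with an exact counting interval of 29.9 to 428. Clip4 and Cyp3a57 were at 0 in every secretory sum and at least 11-fold and 9.63-fold higher in hormone-sensing wells, taking 3 transcripts over the group as the floor. Il8 as listed in the table, Crym, Itih2, Il33 and 2 members of the hormone-sensing list, Tspan1 and Fgfr2, complete the 12, with log2 changes between 5.04 and 6.14. In an unpaired fit of sums of 5 or more wells, which sets the 1 hormone-sensing sum of plate 2 library 1 against 3 secretory sums and assumes that the lone sum varies like the others, Crym and Tspan1 did not pass (edgeR adjusted p = 0.0707 and 0.377).

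Milk and secretory products went the other way: 10 of 10 tested members were lower in hormone-sensing wells, with a median log2 change of -5.85. Csn3, kappa-casein, was at 53.0, 115, 40.4 and 54.4 per 10000 in secretory wells and at 3.02, 2.12, 0.595 and 0.638 in hormone-sensing wells. Every secretory sum lay above every hormone-sensing sum, and the log2 change was -6.14 ± 0.37 (SE, edgeR adjusted p = 1.82e-57). Lalba, the alpha-lactalbumin subunit of lactose synthase, was at 5.67, 22.2, 4.85 and 18.9 against 0, 0.0923, 0 and 0.255, a log2 change of -7.22 ± 0.71 (SE; edgeR adjusted p = 1.76e-21). Wfdc18, a secreted whey-type protein, was at 11.4, 8.50, 42.8 and 10.2 against 1.51, 0.0923, 0.0661 and 0, a log2 change of -8.18 ± 0.76 (SE; edgeR adjusted p = 2.06e-24). All of the 42.8 in plate 2 library 1 came from 53 transcripts of 1 well.

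The progenitor list followed the milk list, with 7 of 9 tested members lower in hormone-sensing wells and 0 higher. Kit, the receptor for stem cell factor, was at 9.16, 5.18, 10.5 and 7.35 per 10000 in secretory wells, and 1 transcript in all was found in the 22 hormone-sensing wells. Its log2 change was -7.48 ± 0.87 (SE; edgeR adjusted p = 2.63e-15). Elf5, the factor that directs the secretory fate, was at 3.28, 2.79, 4.85 and 6.31 against 0, 0.0923, 0.132 and 0, a log2 change of -5.58 ± 0.81 (SE; edgeR adjusted p = 5.89e-10). Cd14, a coreceptor for bacterial lipopolysaccharide, was at 3.98 to 7.27 against 0.132 to 1.51 per 10000, with a log2 change of -4.12 ± 0.67 (SE; edgeR adjusted p = 2.84e-08). Sox9, a factor of the same list, stood at 7.17, 6.91, 6.46 and 5.36 per 10000 in secretory and 16.6, 12.6, 12.9 and 2.81 in hormone-sensing wells and did not pass. Among the 12 largest, genes with no transcript in the hormone-sensing sums of the tested libraries gave lower bounds only: Atp6v1b1, a proton pump subunit, was at least 47.1-fold lower there, BC006965 39.3-fold, Fads1, a fatty acid desaturase, 32.7-fold, Lbp 28.8-fold, Foxi1, a factor of ion-transporting cells, 27.7-fold, Tspan8 23.3-fold, Ntn1 21.6-fold and Ldhb 17.7-fold.

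All 3 tested Notch list members were lower in hormone-sensing wells, against 7.62% of all genes tested. Hey1, a target of Notch, was at 2.19, 1.99, 2.42 and 6.48 per 10000 in secretory and 1.51, 0.185, 0 and 0.128 in hormone-sensing wells, a log2 change of -4.99 ± 0.83 (SE; edgeR adjusted p = 6.99e-08). Without plate 2 library 3 its adjusted p was 0.0752. Notch1 itself fell by 2.38 ± 0.64 on the log2 scale (SE; edgeR adjusted p = 0.00262). That call was lost without plate 1 library 3 (edgeR adjusted p = 0.398) or plate 2 library 3 (edgeR adjusted p = 0.246). Id2, an inhibitor of helix-loop-helix factors counted with the growth factor genes, was at 2.59, 3.46, 3.23 and 4.41 against 0, 0.185, 0.0661 and 0, a log2 change of -5.25 ± 0.80 (SE; edgeR adjusted p = 3.83e-09). That list was mixed, with 3 of 9 tested members higher and 6 lower.

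Of 11 tested members of the interferon and MHC list, 5 rose in hormone-sensing wells (H2-D1, B2m, Tap2, Psmb8 and Psmb9), 0 fell and 6 did not pass. Of all genes tested, 6.07% rose and 7.62% fell. H2-D1, a class I heavy chain, was at 57.5, 45.5, 35.7 and 22.5 per 10000 against 12.9, 11, 21 and 5.45, a log2 change of 1.53 ± 0.34 (SE; edgeR adjusted p = 0.00014). B2m, its light chain, was at 45.4, 18.9, 22 and 15.2 against 13.6, 2.13, 21 and 2.42, a log2 change of 1.86 ± 0.44 (SE; edgeR adjusted p = 0.00039). Within every library the hormone-sensing sum of both genes was the higher, by little for B2m in plate 2 library 1. Tap2, a peptide transporter, and Psmb8, an immunoproteasome subunit, rose by 3.02 ± 0.81 and 2.40 ± 0.66 on the log2 scale (SE; edgeR adjusted p = 0.0024 and 0.00352). H2-K1, another class I heavy chain, did not pass (1.01 ± 0.40, SE; edgeR adjusted p = 0.0803) and in plate 2 library 1 stood at 21.6 per 10000 in hormone-sensing and 24.2 in secretory wells. H2-T23, a nonclassical class I gene, was at 3.02, 2.95, 4.83 and 2.42 against 5.87, 3.06, 2.42 and 2.16 per 10000 and did not pass. Without plate 1 library 3 the adjusted p was 0.106 for H2-D1, 0.308 for B2m, 0.168 for Tap2 and 0.135 for Psmb8, with log2 changes still between 1.38 and 2.90. Without plate 2 library 3 it was 0.0778 for B2m and 0.059 for Psmb8, and with no replicate block 0.137 for B2m. H2-Aa and Cd74, class II genes of immune cells, were at 0 in every hormone-sensing well.

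Of 14 tested members of the pan-luminal and junction list, 3 rose (Wfdc2, Krt7 and Cd24a) and 1 fell (the transcription factor Ehf), none of them a junction protein. Krt7, a keratin of ducts, was at 0, 7.10, 9.72 and 6.76 per 10000 in hormone-sensing and 0.498, 0.930, 0 and 0.778 in secretory wells, a log2 change of 3.13 ± 0.63 (SE; edgeR adjusted p = 1.28e-05). Of 10 tested transport genes 2 rose and 2 fell. Over all genes tested, 6.07% rose and 7.62% fell. Slc12a2, a sodium, potassium and chloride cotransporter, was at 12.1, 8.58, 21.7 and 16.7 against 0.299, 3.32, 1.62 and 2.07, a log2 change of 2.37 ± 0.50 (SE; edgeR adjusted p = 3.96e-05), and its adjusted p was 0.0715 without plate 2 library 1. Slc5a5, the iodide importer, rose by 4.58 ± 0.89 (SE; edgeR adjusted p = 6.67e-06), with an adjusted p of 0.0629 without plate 2 library 3. Mt2, a metal-binding metallothionein, was at 27.2, 16.9, 6.48 and 19.1 against 13.1, 0.266, 0 and 1.64, and 130 of the 132 transcripts behind the 13.1 came from 1 well of 45824. Its log2 change of 4.29 ± 0.62 (SE; edgeR adjusted p = 3.84e-10) was 3.13 in a blocked fit that added plate 1 library 1 (edgeR adjusted p = 3.16e-06) and 0.22 in the unpaired fit of 1 hormone-sensing sum against 3 secretory sums (edgeR adjusted p = 0.945). Heat shock genes (0 of 16 tested) and oxidative phosphorylation genes (0 of 36) gave no call by edgeR, with 0 and 2 at an unadjusted p under 0.05. Cell cycle genes were too thin to compare, with 1 S phase and 3 G2 genes tested and 0 called.

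By share of pooled transcripts, few called genes came mostly from 1 well. The largest well gave a median of 24.8% of the transcripts of a gene called higher in hormone-sensing wells and 19.5% of one called higher in secretory wells. A single well gave 50% or more for 5 of the 109 genes, Ido1, Crym, Lama5, Rbms3 and Tmem176a. Among the 137 it did so for 1, Spp1. These names were singled out after their values were seen. A fit can still lean on 1 deep well. The plate 1 library 3 well of 57903 transcripts was the 1 luminal well with 10 or more transcripts of basal genes. Without it, 191 of 1452 tested genes passed by edgeR, and 187 of the 246 calls were kept. Fos, Egr1 and Nr4a1 were among those lost.

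Milk products and immediate early genes, which cells switch on soon after a stimulus, had some of the largest variance to mean ratios between deep secretory wells. At an equal relative spread that ratio is larger for a more abundant gene, so it does not rank relative spread. After each well was thinned to 1500 transcripts and the 2 wells led by foreign lists were set aside, the median variance to mean ratio, with the variance taken within libraries, over 353 genes was 1.33 in 26 wells, where 1 would be counting noise. Spp1, the secreted phosphoprotein osteopontin, reached 13.7, Wfdc18 7.22, Ltf, the iron-binding milk protein lactoferrin, 7.17, Csn3 7.16, Fos 6.30, Lalba 6.10 and Egr1 5.34. The ribosomal Rn45s and the noncoding Malat1 were also among the 12 leading genes at this depth. Rn45s ranked between Spp1 and Wfdc18, and Malat1 between Lalba and Egr1. This ranking was chosen after the data were seen, and it depends on depth: of the 12 leading secretory genes at 500 transcripts, which began with the noncoding or ribosomal Rn45s, Kcnq1ot1 and A630089N07Rik, 3 recurred. Cd74 and H2-Aa were also among those 12, and 7.56 per 10000 of Cd74 in plate 1 library 1 was its only secretory level above 0. Of the 76 Cd74 transcripts there, 59 came from the well led by macrophage and dendritic genes.

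The 28 secretory wells of 1500 or more transcripts include the 2 led by foreign lists, which the ranking above set aside. In these 28, Csn3 ran from 0 to 201 per 10000 with a median of 53.6, and 2 wells had none. Spp1 ran from 0 to 272 with a median of 6.64. The highest Spp1 well, of 18709 transcripts in plate 1 library 3, gave 509 of that library's 786 secretory Spp1 transcripts. Lalba ran from 0 to 70.5 with 9 wells at 0, and Wfdc18 from 0 to 92.0 with 12 wells at 0. Wfdc18 did not keep company with the other milk genes in every well. The plate 2 library 1 well of 6808 transcripts held 53 of Wfdc18 with none of Csn3, Lalba or Spp1, and the plate 2 library 3 well of 6572 held 24 with 4 of Csn3 and none of Lalba or Spp1. Of the rule's own genes they held 18 and 15 transcripts of Krt8 and 9 and 8 of Trf.

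Ltf and Fcgbp, a mucin-like protein that binds antibody, were high in some secretory wells of plate 1 and low in plate 2 library 1. Ltf was at 20.4, 23.9, 0.808 and 10.5 per 10000 in the summed secretory wells, and 116 of 122 transcripts behind the last value came from 1 well. Fcgbp was at 10.3, 24.7, 0 and 1.99. Across the 26 wells Ltf and Fcgbp had a Spearman correlation of 0.58 and Fos and Egr1 one of 0.65. These were the largest of the secretory pairs looked at, and Wfdc18 with Lalba had the lowest, -0.44. Wells of 1 library share its preparation and depth. Fos ran from 0 to 235 per 10000 in deep secretory wells with a median of 33.4.

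**Figure D3:**
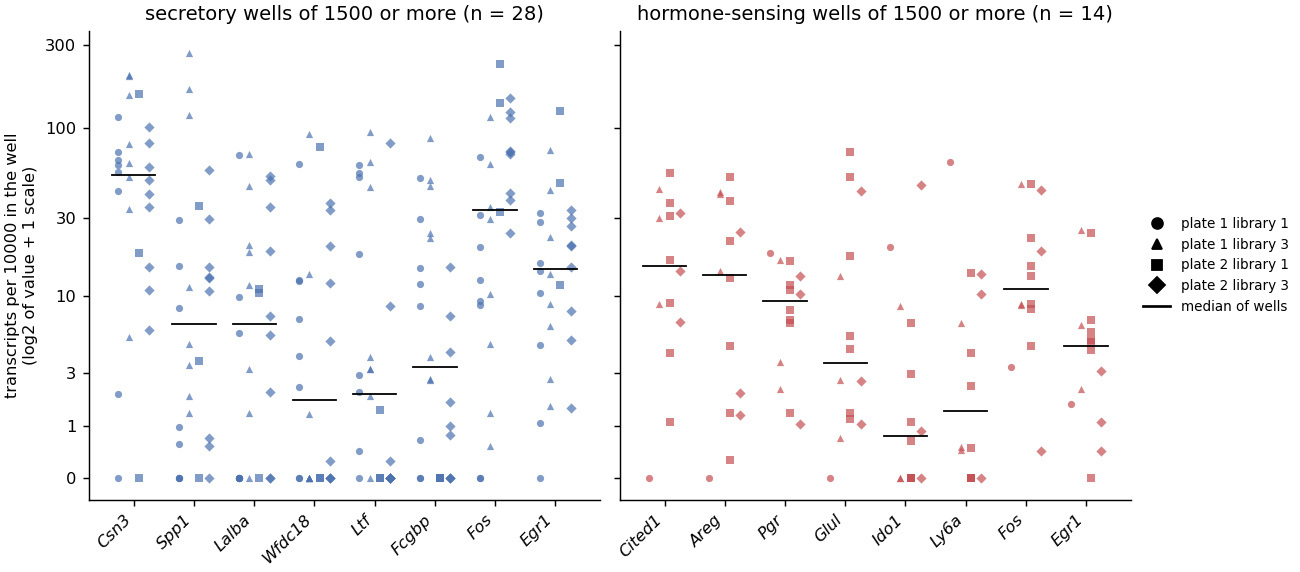
Transcripts per 10000 of 8 genes in each secretory (left, n = 28) and hormone-sensing (right, n = 14) well of 1500 or more transcripts, on a log2 scale of the value plus 1, one symbol shape per library, bars at the median of wells. The 28 secretory wells include the 2 led by foreign lists. Csn3 and Fos are present in all but 2 of the 28 each, and Wfdc18 and Ltf are at 0 in 12 and 10 of them. Glul and Ido1 reach 72.8 and 46.5 in single hormone-sensing wells.

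Most deep hormone-sensing wells shared their defining genes. Pgr and Ptn were found in all 14 deep wells, Pgr between 1.03 and 18.4 per 10000, and Cited1 and Areg in 13 of 14. The well that lacked both, of 5968 transcripts in plate 1 library 1, held 11 of Pgr, 38 of Ly6a and 12 of Ido1. Ly6a is a surface protein counted with the hormone-sensing genes, and Ido1 an enzyme that degrades tryptophan. The well of 45559 transcripts in plate 2 library 3 stood apart as well, with 212 of Ido1, 196 of Glul, the enzyme that makes glutamine, 122 of Dmbt1, a mucosal scavenger protein, and 63 of Ly6a. At 1500 transcripts Malat1, a nuclear noncoding RNA, had the largest variance to mean ratio, 47.7, followed by Glul with 11.9. The plate 1 library 3 well of 4455 transcripts held Malat1 at 698 per 10000, and no deep hormone-sensing well of the other libraries passed 106. Malat1 and the ribosomal Rn45s moved together over the 14 wells, with a Spearman correlation of 0.81, the largest of the pairs looked at. These wells were pooled from 4 libraries, where the median Malat1 level of deep hormone-sensing wells was 38.5, 102, 12.5 and 85.8 per 10000. The part of library differences in the correlation was not tested.

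The 20 luminal wells that held under 1500 transcripts could be read against genes called in deep wells only. Genes past the threshold in wells of 1500 or more, and at least 8-fold apart, made a hormone-sensing set of 53 and a secretory set of 60; that size was chosen after values were seen. In the deep wells that chose the sets, the hormone-sensing set took a median of 3.16% of transcripts in hormone-sensing wells and the secretory set 5.48% in secretory wells, with the opposite sets at 0.136% and 0.151%. Of the 8 shallow hormone-sensing wells, which chose no set, all 8 held more of the hormone-sensing set, with medians of 2.25% against 0.639%. Of these, 6 came from plate 2 library 1, where 19 of 28 near-empty wells of 100 or more transcripts also held more of that set, with medians of 1.55% against 0.391%. Of the 6 shallow secretory wells, 3 held more of the secretory set, with medians of 1.70% against 1.08%. The shallow secretory class call, on 1 to 9 Trf transcripts, was therefore matched by other genes in 3 of 6 wells. Both wells of plate 1 library 1 were among those 3, with 3.17% and 3.70% of the secretory set. In that library 31 of 37 near-empty wells of 100 or more transcripts also held more of that set, with medians of 2.53% against 0.532%.

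Of the 7 tied wells, 5 held more of the hormone-sensing set, all under 1500 transcripts and 2 of them by a narrow margin. The clearest was the plate 2 library 1 well of 1106, with 3.80% against 0.271%, and the plate 2 library 3 well of 1459 had 2.19% against 0.206%. The deepest tied well, of 1505 in plate 1 library 3, held both sets, at 1.93% and 2.72%. Shallow wells also differed in makeup: abundant noncoding RNA took a median of 9.28% of transcripts in shallow hormone-sensing, 20.7% in shallow secretory and 8.24% in tied wells, against 1.85% and 3.11% in deep ones. Its part in these results was not tested.

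**Figure D4:**
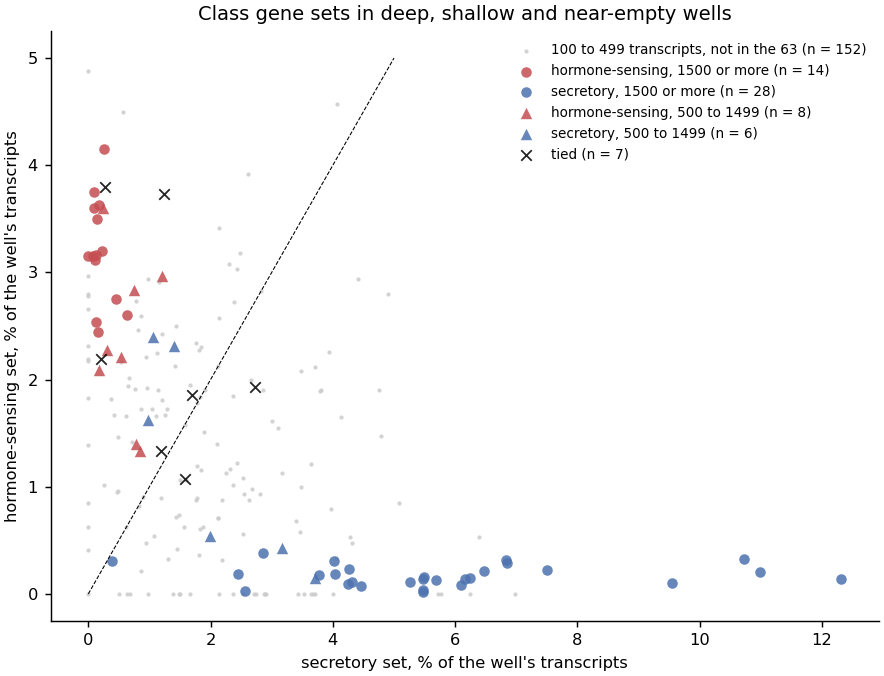
Share of each well's transcripts from the secretory set (x axis, %) and from the hormone-sensing set (y axis, %), with a dashed line at equal shares, for the luminal wells by class and depth and for 152 wells of 100 or more but under 500 transcripts (grey). Deep wells lie along the axes, all 8 shallow hormone-sensing wells lie above the line, 3 of 6 shallow secretory wells lie below it, and the grey wells lie on both sides.

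Wells too empty to count carried luminal transcripts of both classes. In 152 wells of 100 or more but under 500 transcripts the sets took medians of 1.18% and 1.82%, with 56 wells higher in the hormone-sensing set and 86 in the secretory set. Csn3 in wells under 500 transcripts was at 40.1, 38.3, 2.32 and 22.8 per 10000, low in plate 2 library 1, where the whole library held 62 Csn3 transcripts against 578 to 948 in the other 3. Csn3 in hormone-sensing wells, at 0.595 to 3.02, was below that level in every library. Prlr ran the other way, at 2.29, 4.78, 24.3 and 9.78 per 10000 in those near-empty wells, highest where 13 of 17 luminal wells were hormone-sensing. In the shallow luminal wells, which were chosen on these counts, Prlr was at 27.3 per 10000 in the hormone-sensing and Trf at 34.3 in the secretory class. Dmbt1 showed the same in 1 library: beside the 122 transcripts of 1 plate 2 library 3 well, 6 of 11 secretory wells and 9 of 76 near-empty wells there held 1 each, and the other 3 libraries held none.

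Between plates, hormone-sensing wells gave 20 calls of 3255 genes tested (0.614%; edgeR's quasi-likelihood test, 15 higher and 5 lower on plate 2), in 1 library of plate 1 against 2 of plate 2. For 14 of the 20 genes a single well gave 50% or more of the transcripts. Dmbt1 had 122 of 124 in the plate 2 library 3 well of 45559, which also gave 49 of 50 of Wfdc12, a secreted protease inhibitor, and 56 of 65 of Abp1. Cxcl2, a chemokine, had 41 of 42 and Epgn, a ligand of the EGF receptor, 41 of 48 in the plate 1 library 3 well of 44963. Mki67, a mark of cycling cells, had 31 of 38 in the plate 2 library 3 well of 23134, which also gave 17 of 32 of Cenpa, a centromere histone. Glul was found in 17 of 20 wells, at 2.03 per 10000 in plate 1 library 3 against 23.5 and 25.9 in the plate 2 libraries, a log2 change of 3.61 ± 0.70 (SE; edgeR adjusted p = 7.51e-05). The plate 2 sums rested largely on 2 wells, which gave 192 of 355 Glul transcripts in library 1 and 196 of 203 in library 3, and the median deep wells there held 5.48 and 2.59 per 10000. Plate 1 library 1, outside the test, was at 4.54. DESeq2 called 1 gene, and a fit that added the 2 hormone-sensing wells of plate 1 library 1 called 0 (54 at an unadjusted p under 0.05). Among secretory wells, 0 of 1638 genes (0%) passed by edgeR, 43 had an unadjusted p under 0.05, and DESeq2 called 2.

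Of 18 tested immediate early genes, 5 were lower in hormone-sensing wells and 0 higher, against 7.62% lower and 6.07% higher of all genes tested. Fos was at 15.7, 21.9, 103 and 76.2 per 10000 in secretory and 3.02, 25, 20.6 and 16.5 in hormone-sensing wells, a log2 change of -1.57 ± 0.29 (SE; edgeR adjusted p = 2.58e-06). Egr1 fell by 2.07 ± 0.41 and Nr4a1 by 1.38 ± 0.51 on that scale (SE; edgeR adjusted p = 1.03e-05 and 0.0482). Each call was lost without plate 2 library 1 (adjusted p = 0.18 for Fos, 0.192 for Egr1 and 0.753 for Nr4a1) or without plate 2 library 3 (0.25, 0.222 and 0.956). With no replicate block the adjusted p was 0.1 for Egr1 and 0.187 for Nr4a1. Atf3, a stress-induced transcription factor, was at 9.07, 19.6, 7.74 and 5.61 in hormone-sensing wells and 4.38, 0.930, 9.69 and 23.3 in secretory wells. It was higher in hormone-sensing wells in both plate 1 libraries and lower in both of plate 2, and was the 1 gene of 1797 (0.0556%) past the threshold in the test of the class difference between plates, with a difference of -5.33 ± 1.22 on the log2 scale (SE; edgeR adjusted p = 0.0246). That test has 1 library on plate 1, and 38 genes had an unadjusted p under 0.05. Errfi1, Csrnp1, Dusp1 and Nr4a1 followed, each with an adjusted p of 0.126.

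**Figure D5:**
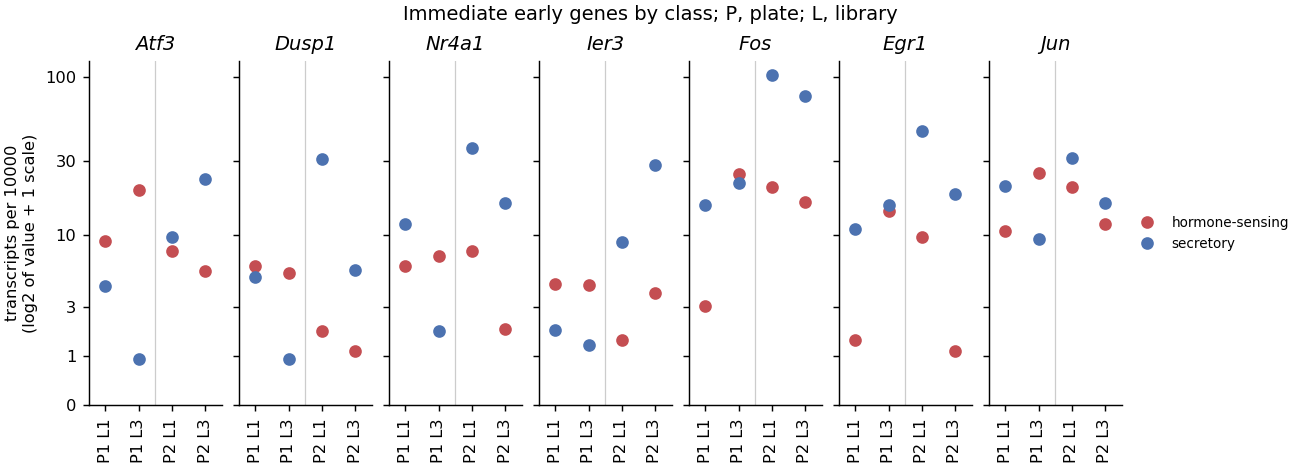
Transcripts per 10000 of 7 immediate early genes in hormone-sensing (red) and secretory (blue) wells summed by library, on a log2 scale of the value plus 1, with plate 1 left and plate 2 right of the grey line. Atf3 is higher in hormone-sensing sums in both plate 1 libraries and in secretory sums in both plate 2 libraries, and Fos in secretory sums reaches 103 and 76.2 on plate 2.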

How the data were processed

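Values were deposited by the authors as 1 table of expected counts per gene and well. Per the submitters' processing notes, BWA 0.6.2-r126 and mm10 were used. The sources used here do not name the counting tool. Of 518737 values above 0, 518732 lie (tolerance 1e-06) on the scale that corrects counts of 256 tags of 4 bases for collisions, so very abundant transcripts are estimates. Values were rounded; 81 spike-in lines were left out of 14883 gene lines and kept as a check. Doublets were not called. Sums over the wells of a class in a library entered edgeR's quasi-likelihood test (edgeR 4.0.16, R 4.3.3, TMM and filterByExpr, blocked on library); SEs are the log2 change over the square root of F. DESeq2 1.42.0, other filters, depths and left-out libraries were alternatives. The test was tried on simulated data (1848 genes) with a spread set by hand and no library effect: 1 of 1672 unchanged genes was called. Intervals are exact binomial or conditional and cover counting error only. Thinning used seed 1, and genes of a mean of 0.2 or more per thinned well were ranked. Named genes are the 12 largest called changes each way of 1 sign in every library, leaving out ribosomal and predicted genes, up to 4 called and 2 other members per list, and 5 each way per plate test; others were named after their values were seen. Start regions matched 170 of the 246 called genes, too few to compare motif shares. Members and lists were chosen with earlier results of these data known. Wells carry the same 96 positions in every library, which do not identify cells.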

Additional observations from a re-analysis of the deposited data

Results flagged for a closer look

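Of 108 sets of 4 library values of the luminal genes tested here, 19 had 1 library far from the other 3 by Dixon's ratio. For normally spread values that ratio flags about 1 in 20. A set with no transcript in the other 3 libraries is flagged whatever the size of its remaining value. Many of these genes were named for being near absent in 1 class, so the 19 cannot be set against that rate. In secretory wells the high ones were Spp1 at 104 per 10000 in plate 1 library 3, Wfdc18 at 42.8 in plate 2 library 1, Mt2 at 13.1 in plate 1 library 1 and Hey1 at 6.48 in plate 2 library 3. In each of these a single well held 509 of 786, 53 of 53, 130 of 132 and 40 of 75 of the transcripts. Ly6d at 1.29 in plate 1 library 1 took 9 of 13 from the well led by lymphocyte genes. Aldoc in secretory wells was low, at 2.52, in plate 1 library 3.

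Other secretory flags were traces: in plate 1 library 3, Areg at 1.20 (9 transcripts), Il33 and Tspan1 at 0.266 (2 each), and Il8 and Itih2 at 0.133 (1 each), and in plate 2 library 3, Crym at 0.0864 (1 transcript). In hormone-sensing wells, Aldoc, Hey1, Sepp1 and Wfdc18 at 1.51 in plate 1 library 1 were 1 transcript each of 2 wells, and Kit at 0.0923 in plate 1 library 3 was 1 transcript. Ptpn1 at 9.07 in plate 1 library 1 was 6 transcripts of 1 well. Ehf at 1.91 in plate 2 library 3 was 15 transcripts in all 3 wells, 9 of them in the deepest.

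The class difference of Atf3 differed between plates by -5.33 on the log2 scale, in a test with 1 library on plate 1.

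Among the wells under 500 transcripts, 23 met every other condition of the luminal rule and entered no comparison.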

How the results depend on the processing

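The plate difference in hormone-sensing share ran from -1.19 to 58.6 percentage points with 1 library left out, and reversed without plate 2 library 1. The class count of 246 ran from 114 to 214 with 1 library left out (114 when plate 1 library 3 was dropped, 133 for library 3 of plate 2 and 214 for its library 1). It fell to 117 without wells of 10% or more abundant noncoding RNA (added after seeing the data), and to 4 of 32 tested with wells thinned to 500 transcripts. With no replicate block it was 230, and by DESeq2 172. Without the plate 1 library 3 well of 57903 transcripts it was 191 of 1452 tested. Calls higher in hormone-sensing wells were 44.3% of all, 33.6% without plate 2 library 1 and 51.9% without plate 2 library 3, and 36.4% in an unpaired fit of sums of 5 or more wells (added; 1 hormone-sensing against 3 secretory sums). Of 46 genes of the text past the threshold, 29 passed in all 3 fits with a library left out. Over all alternatives, 634 gene values kept direction and side of the threshold, 83 lost it and 8 gained it, and none reversed.

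The hormone-sensing plate count of 20 became 0 after thinning (14 genes tested), 0 with sums of 1 well or more (added) and 1 by DESeq2. Same-numbered libraries of the plates share only a number (correlation of deviations 0.0498 over 1638 genes). The secretory plate count of 0 became 12 with library number as a replicate block, 5 with no filter, 3 after thinning, 2 by DESeq2, and 0 to 35 with 1 library left out (0 for library 3 of plate 1, 4 for its library 1, 20 for library 1 of plate 2 and 35 for its library 3). The cause was not tested.

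Of the 12 most variable genes, hormone-sensing wells shared 7 under a second thinning seed, and 3 at 1500 transcripts, with or without the wells led by another type; secretory wells shared 5 and, without those wells, 3. No library held 5 wells of both classes, so that paired fit could not be made, nor could a blocked or leave-one-out plate fit of hormone-sensing wells. The median of all genes moved from 0.12 to 0.26 without TMM scaling. Depth limits every list: S phase and G2 genes were mostly below the filter.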

Other observations

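Trf in wells under 500 transcripts was at 45.9, 23, 3.48 and 16.3 per 10000, and in hormone-sensing wells at 3.02, 2.12, 0.0661 and 0.638, lowest for both in plate 2 library 1, which held 77 Trf transcripts in all. Spp1 was also lowest in plate 2 library 1, which held 11 transcripts, with 0 of 13 hormone-sensing and 0 of 71 near-empty wells having any. In plate 1 library 3, which held 842, Spp1 was found in all 4 hormone-sensing and 16 of 70 near-empty wells. Cited1, a hormone-sensing gene, was at 4.59, 19.1, 11.6 and 7.33 per 10000 in near-empty wells and at 0, 36.9, 18.3 and 12.1 in hormone-sensing wells, highest for both in plate 1 library 3. These levels are a description with no test.

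The class of a well thinned to 500 transcripts was read from fewer molecules: 15 wells were then hormone-sensing, 31 secretory and 17 tied, against 22, 34 and 7 on all transcripts.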
